A study of Mus musculus with 11 samples.

Results

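The proteasome genes described here are the 36 genes whose symbol begins with Psma, Psmb, Psmc or Psmd and a digit, without the immunoproteasome genes Psmb8, Psmb9 and Psmb10. They were found by name among 12393 genes that had a probe set with exactly 1 gene symbol in the array's annotation, and they had 65 such probe sets. Each gene was represented by its probe set with the highest mean over the 11 samples. Liver RNA was measured on single-colour Affymetrix arrays in 6 male Gsr-null mice and 5 male wild-type (WT) mice. The labels put both genotypes on the C57BL/6J background at an age of 15 to 20 weeks, and the livers were taken between 2 and 4 in the afternoon. Samples are named here by the replicate number of their titles. The titles of the Gsr-null samples also hold another, different number in brackets, which is not used. Gsr encodes glutathione reductase, which returns oxidised glutathione to its reduced form, and the labels name the Gsr-null genotype without describing the allele.

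The proteasome is the large protease that breaks down proteins tagged with ubiquitin, and it accounts for much of the protein turnover of liver cells. Its 20S core is a barrel of α rings (Psma genes), which gate the entry, and β rings (Psmb genes), of which Psmb5, Psmb6 and Psmb7 encode the catalytic subunits of the constitutive form. The 19S regulator caps the barrel: its ATPases (Psmc genes) unfold the substrate, and its non-ATPase subunits (Psmd genes) bind and remove ubiquitin. Oxidised proteins are among its substrates. The transcription factors NFE2L1 and NFE2L2 are known to raise proteasome genes when proteasome activity falls or electrophiles accumulate, through antioxidant response elements in their promoters. The question put to these samples is whether the transcripts of this complex differ between livers with and without Gsr.

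Of the 36 genes 34 passed the filter on low values, a log2 value above 4 in at least 5 samples, and were tested. They were 14 genes of the 20S core, 17 of the 19S regulator and Psmd5, Psmd9 and Psmd10, which encode chaperones that assemble its base and are not subunits of the finished particle. The other two did not pass. Psma8, the α subunit of the testis form, lay between 2.24 and 2.77 in Gsr-null and between 2.09 and 2.44 in WT livers. Psmc3ip, whose symbol the rule takes in although its product acts in meiotic recombination and is no subunit, lay between 2.31 and 2.80 in Gsr-null and between 2.46 and 2.63 in WT livers. No tested gene was below 5.79 in any liver.

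The checks of the arrays were as follows. Gsr lay between 4.71 and 5.29 in Gsr-null and between 6.62 and 6.93 in WT livers, so the groups did not overlap, and limma gave a difference of -1.83 (SE 0.123, adjusted p = 1.82e-05). The hepatocyte markers Alb, Apoa1 and Ttr averaged 14.26, 14.34 and 14.21 in Gsr-null and 14.24, 14.41 and 14.18 in WT livers. Of the other measured hepatocyte markers, Ahsg and Cps1 differed by -0.11 and -0.087, and Tat averaged 10.88 in Gsr-null and 10.30 in WT livers (difference 0.58, SE 0.251, limma unadjusted p = 0.0404, adjusted p = 0.559). Arrays of Gsr-null samples 2 and 3 had a 5th percentile of 1.79 and 1.76, against 1.53 to 1.62 on the others. Control probe sets at the 3' and 5' ends of Gapdh and Actb, which report on RNA quality, gave a 3' minus 5' difference that fell into a lower set (0.544 to 0.703, 3 Gsr-null and 2 WT) and a higher set (1.2 to 1.75, 3 Gsr-null and 3 WT). Gsr-null sample 6 had the fewest probe sets above 4, with 9094, against 9377 to 9603 on the other arrays.

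No proteasome gene passed the test between the genotypes. Of the 34 tested genes 0 were called higher and 0 lower in Gsr-null livers (limma, Benjamini-Hochberg adjusted p under 0.05). Of all 9560 tested probe sets 0.387% were called, 0.167% higher and 0.22% lower. The smallest adjusted p among the 34 proteasome genes was 0.638. At an unadjusted p under 0.05 there were likewise 0 of 34, against 8.36% of all tested probe sets, and in 0 of 34 did the groups not overlap, against 1.36%. The differences, as Gsr-null minus WT on the log2 scale, ran from -0.34 to 0.18, and 29 of 34 were smaller than 0.2 in size, against 67.7% of all tested probe sets.

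The intervals bound what the arrays could have missed. In 24 of 34 genes the unadjusted 95% interval of the difference lay within 0.5 log2 units on either side of 0, a 1.41-fold change, against 44.9% of all tested probe sets. In 33 of 34 it lay within 1 log2 unit, a 2-fold change, against 88.7%. The exception was Psmd6, with an interval from -1.11 to 0.42 on its representative probe set. Its second tested probe set gave an interval from -0.33 to 0.13. The residual SD between livers of 1 genotype had a median of 0.23 over the 34 genes and 0.293 over all tested probe sets. Among those averaging above 8, a level reached by 27 of the 34, it was 0.21 for the proteasome genes and 0.252 for all. At that level the contrasts were smaller. The interval lay within 0.5 in 74.1% of the proteasome genes and 56.6% of all, and within 1 in 96.3% and 92.3%. Differences smaller than 0.2 in size made up 85.2% and 76.0%.

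**Figure D1:**
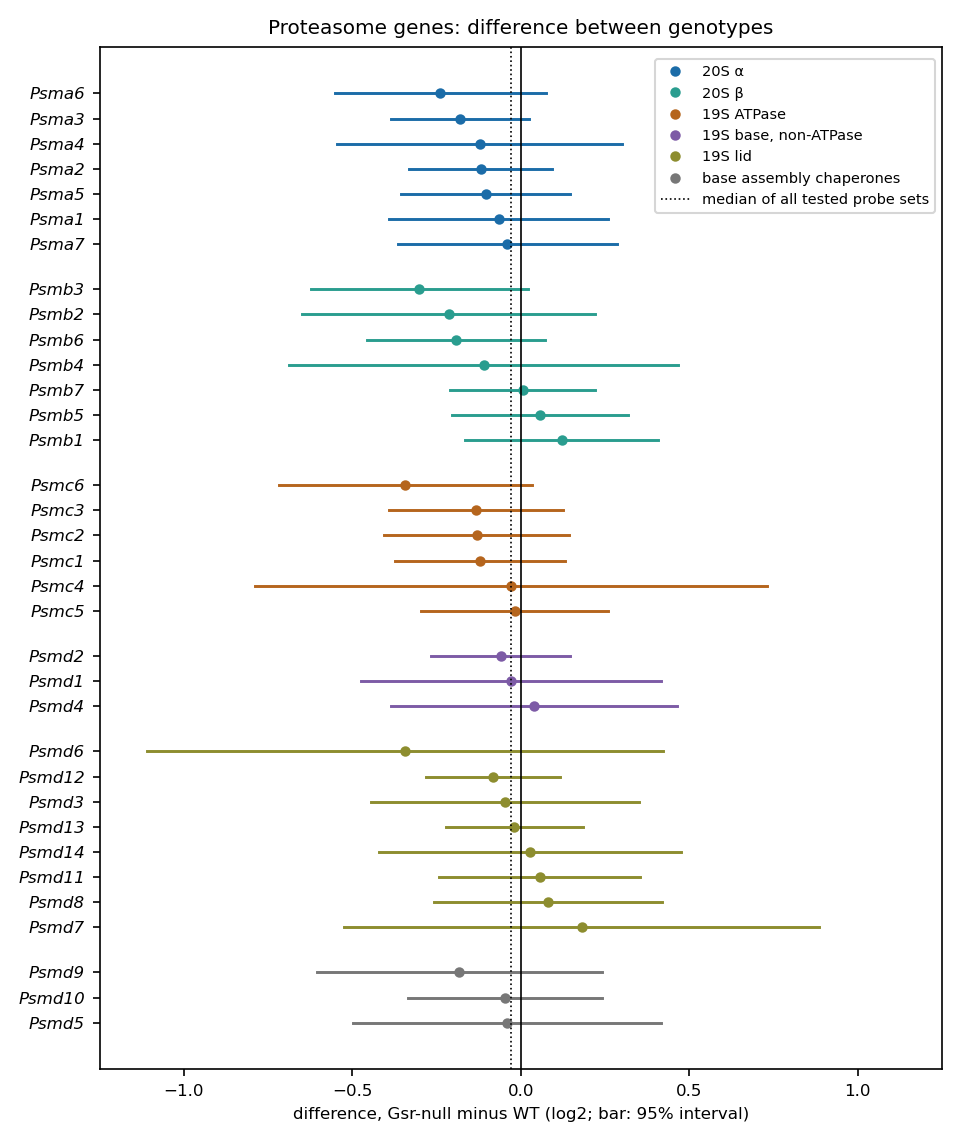
Difference between genotypes (x axis, Gsr-null minus WT, log2) for the 34 tested proteasome genes, grouped by their place in the complex; points are limma estimates from 6 Gsr-null and 5 WT livers and bars their unadjusted 95% intervals. Every interval includes 0, the points run from -0.34 to 0.18, and the dotted line marks the median of all tested probe sets, -0.029.

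Small differences leaned to the negative side. In 26 of 34 genes the Gsr-null mean was below the WT mean, and the median difference was -0.063. Over all 9560 tested probe sets 56.7% were negative and the median was -0.029. The 34 genes are parts of 1 complex measured in the same 11 livers, so these counts carry no p-value. The count rested in part on single livers: 8 genes had a positive difference with all samples, 13 without Gsr-null sample 6 and 5 without Gsr-null sample 2. The fit with the replicate number as a block gave the same 13, since Gsr-null sample 6 has no WT sample of its number and adds nothing to it.

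None of the α subunits of the core passed the test. With all samples and the representative probe sets the 7 tested genes had a negative difference, from -0.24 (Psma6) to -0.04 (Psma7), with a median of -0.12. The sign was not stable for all of them: Psma7 gave 0.045 on its second probe set and 0.062 without Gsr-null sample 3. In the higher 3' minus 5' set Psma1, Psma5 and Psma7 were positive (0.043, 0.02 and 0.25). Psma6 had a lowest, median and highest value of 10.17, 10.67 and 10.93 in Gsr-null livers, against 11.14, 10.79, 10.77, 10.88 and 10.77 in the 5 WT livers. Gsr-null sample 3 was the lowest, samples 5 and 6 lay among the WT livers, and the groups overlapped. The difference was -0.24 (SE 0.144, adjusted p = 0.776), and a second probe set of Psma6 gave -0.13.

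Psma3 was singled out after its values were seen, for its narrow spread. It lay at 11.25, 11.40 and 11.49 (lowest, median and highest) in Gsr-null livers, against 11.50, 11.69, 11.49, 11.52 and 11.60 in WT livers. Gsr-null sample 1 and WT sample 3 met at 11.49, and the other Gsr-null livers were below every WT liver. Its difference of -0.18 (SE 0.0945, limma adjusted p = 0.683) had an interval from -0.39 to 0.025.

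None of the 3 catalytic β genes passed the test, and the interval was narrowest for Psmb7. Psmb7, which encodes the trypsin-like subunit, differed by 0.0055 (SE 0.0984, limma adjusted p = 0.999). Its values were 9.98, 10.16 and 10.22 (lowest, median and highest) in Gsr-null livers, against 10.02, 10.19, 10.0004, 10.19 and 10.27 in WT livers. Both groups covered the same range, and the interval of the difference ran from -0.21 to 0.22. Psmb5, the chymotrypsin-like subunit, had 9.55, 9.65 and 9.89 in Gsr-null livers, against 9.66, 9.61, 9.73, 9.28 and 9.82 in WT livers. The low value of WT sample 4 aside, the groups coincided, and the difference was 0.057 (SE 0.12, adjusted p = 0.983, interval -0.20 to 0.32). Psmb6, the caspase-like subunit, had 10.17, 10.43 and 10.75 in Gsr-null livers, against 10.59, 10.57, 10.65, 10.58 and 10.85 in WT livers. Gsr-null samples 4 and 5 lay among the WT livers, the others below all of them, and the difference was -0.19 (SE 0.121, adjusted p = 0.797, interval -0.46 to 0.072).

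Among the β subunits without a catalytic site, Psmb3 had the largest negative and Psmb1 the largest positive difference. Psmb3 had 9.88, 10.14 and 10.38 in Gsr-null livers, against 10.18, 10.27, 10.72, 10.28 and 10.75 in WT livers. WT samples 3 and 5 were the highest of all, and the remaining WT livers lay among the Gsr-null ones. The difference was -0.30 (SE 0.148, adjusted p = 0.638), the smallest p of any proteasome gene, and -0.13 on its second probe set. Psmb1 had 9.24, 9.38 and 9.68 in Gsr-null livers, against 8.92, 9.27, 9.44, 9.26 and 9.55 in WT livers. WT sample 1 was the lowest, the groups overlapped otherwise, and the difference was 0.12 (SE 0.132, adjusted p = 0.946). Psmb2 and Psmb4 differed by -0.21 and -0.11.

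**Figure D2:**
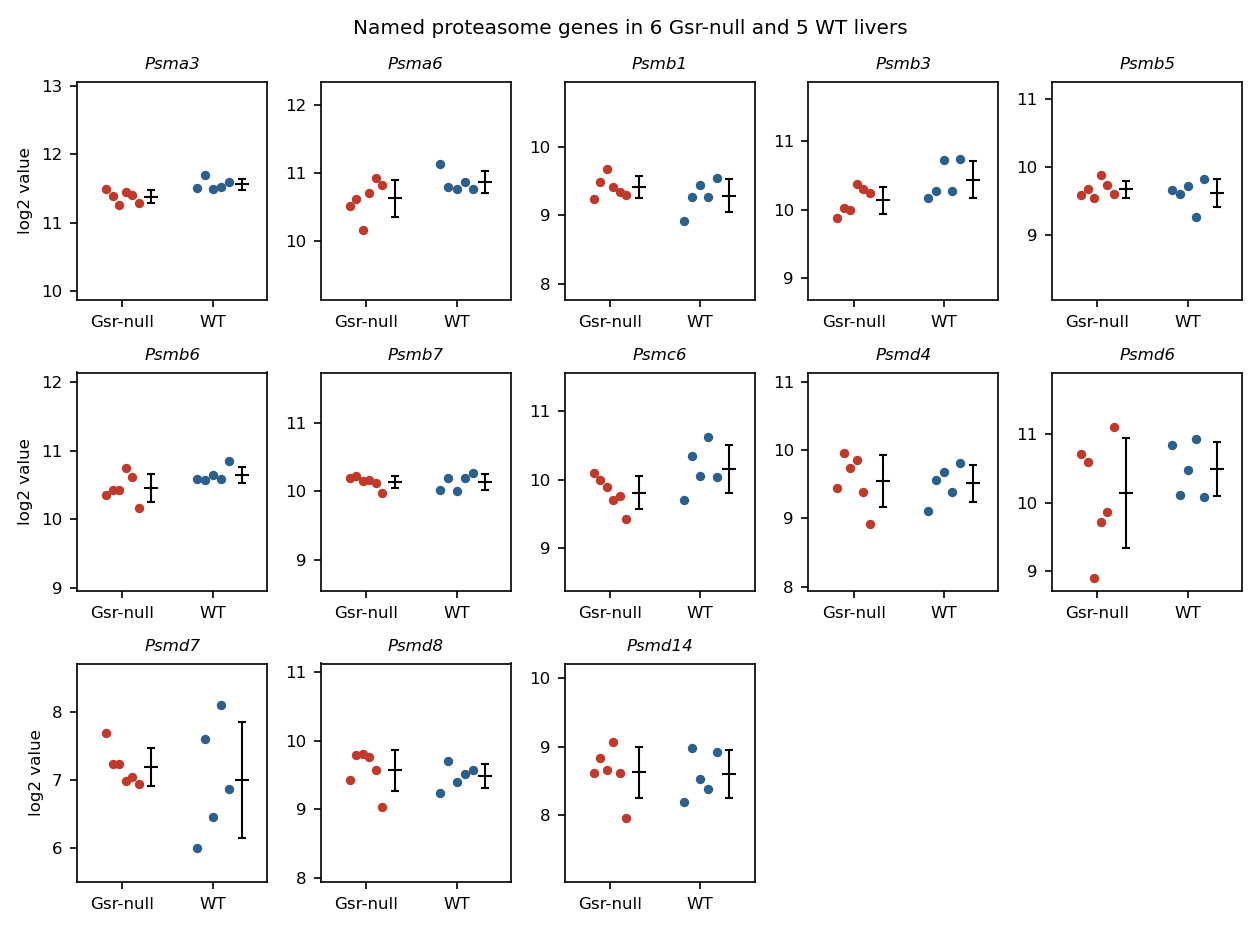
Log2 values (y axis, each panel spanning the same range around the gene's mean) of 13 proteasome genes in 6 Gsr-null (red) and 5 WT (blue) livers; points are livers, black bars the mean ± SD. The groups overlap in all 13 panels, Psma3 and Psmb7 vary least, and Psmd6 and Psmd7 scatter most.

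The antioxidant response element core, TGACNNNGC, was looked for on both strands of the window from 250 bases before to 50 bases after the start of each gene, because NFE2L1 and NFE2L2 act through such elements. RefSeq promoters (GRCm38.p6) were matched by symbol for 29 of the 36 genes. The motif stood in 5 of them (17.2%), Psmb5, Psmb6, Psmc6, Psmd9 and Psmd12, and in 14% of all 27025 genes with a promoter. The 250 bases before the start of Psmb5, Psmb6 and Psmc6 are shown because both catalytic genes carry the motif close to the start and Psmc6 has 1 of the largest differences of the 34. Capitals mark the motif, which lies on the other strand in Psmc6.
Psmb5, chr14:54617996-54618245, minus strand: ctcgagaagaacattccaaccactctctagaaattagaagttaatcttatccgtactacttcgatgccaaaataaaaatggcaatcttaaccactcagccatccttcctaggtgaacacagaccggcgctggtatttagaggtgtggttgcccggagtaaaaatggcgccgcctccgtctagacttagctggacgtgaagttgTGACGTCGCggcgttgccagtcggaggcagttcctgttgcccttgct
Psmb6, chr11:70525107-70525356, plus strand: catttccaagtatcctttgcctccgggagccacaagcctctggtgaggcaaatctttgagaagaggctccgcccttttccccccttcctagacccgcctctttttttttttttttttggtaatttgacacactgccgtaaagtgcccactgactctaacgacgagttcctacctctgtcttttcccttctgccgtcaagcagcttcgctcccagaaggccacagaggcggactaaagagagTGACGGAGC
Psmc6, chr14:45329574-45329823, plus strand: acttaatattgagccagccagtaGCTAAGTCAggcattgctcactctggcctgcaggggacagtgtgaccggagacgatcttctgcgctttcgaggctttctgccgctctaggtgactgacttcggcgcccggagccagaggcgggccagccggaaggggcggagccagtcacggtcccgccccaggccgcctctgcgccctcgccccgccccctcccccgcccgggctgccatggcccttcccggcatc
The motif read TGACGTCGC in Psmb5, at positions -47 to -39 from the start, and TGACGGAGC in Psmb6, at -9 to -1. In Psmd9 it read TGACCCCGC.

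The 5 genes with the motif had a median difference of -0.18, with 1 of them positive, against -0.06 and 4 positive among the 23 tested genes whose promoter lacked it. Another motif, CCAAT, stood in 12 of 29 proteasome promoters (41.4%) and in 41.1% of all genes. The presence of these letters does not show that a factor binds there.

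None of the 19S ATPases, which thread the substrate into the core, passed the test. With all samples and the representative probe sets the 6 genes had negative differences, from -0.34 (Psmc6) to -0.02 (Psmc5), with a median of -0.13. Psmc2 gave 0.069 on its other probe set, and Psmc4 gave 0.14 without Gsr-null sample 3 and 0.0077 with the 3' minus 5' sets as a block. In the higher of those sets Psmc1, Psmc2 and Psmc3 were positive (0.037, 0.024 and 0.028), and in the lower set Psmc4 and Psmc5 were (0.14 and 0.042). Psmc6 had 9.43, 9.83 and 10.09 in Gsr-null livers, against 9.71, 10.34, 10.05, 10.63 and 10.04 in WT livers. WT samples 2 and 4 were above every Gsr-null liver, while the other WT livers lay within the Gsr-null range. The difference was -0.34 (SE 0.173, adjusted p = 0.662). With the 3' minus 5' sets as a block it was -0.39 with an adjusted p of 0.245, the lowest that any proteasome gene reached under any setting tried. The other probe sets of Psmc6 gave -0.063 and -0.026.

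The 3 base subunits that are not ATPases had differences from -0.06 (Psmd2) to 0.04 (Psmd4). Psmd4, a ubiquitin receptor, had 8.92, 9.59 and 9.96 in Gsr-null livers, against 9.11, 9.57, 9.68, 9.38 and 9.82 in WT livers. The groups covered the same range, and the difference was 0.04 (SE 0.195, adjusted p = 0.999). Psmd1 and Psmd2, scaffolds of the base, differed by -0.03 and -0.06.

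The 8 lid genes were split evenly, 4 positive and 4 negative, with a median difference of 0.0042. Psmd14, the deubiquitinase of the lid, had 7.95, 8.64 and 9.07 in Gsr-null livers, against 8.19, 8.99, 8.52, 8.37 and 8.93 in WT livers. Gsr-null sample 6 was the lowest liver, the groups overlapped, and the difference was 0.027 (SE 0.206, adjusted p = 0.999). Psmd8 had 9.03, 9.66 and 9.81 in Gsr-null livers, against 9.24, 9.70, 9.39, 9.51 and 9.58 in WT livers. Again Gsr-null sample 6 was the lowest, and the difference was 0.081 (SE 0.156, adjusted p = 0.979). Psmd12 and Psmd13 varied least, with residual SDs of 0.0734 and 0.0816 and differences of -0.08 and -0.02.

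Psmd7 and Psmd6 were the most scattered lid genes. Psmd7 had 6.94, 7.14 and 7.69 in Gsr-null livers, against 6.01, 7.59, 6.45, 8.10 and 6.86 in WT livers. The WT livers spread over a wider range than the Gsr-null ones, with an SD of 0.847 against 0.276, and the means differed by 0.18 (SE 0.324, limma adjusted p = 0.979). Whether the spread itself differs was not tested. Psmd6 had 8.90, 10.23 and 11.10 in Gsr-null livers, against 10.84, 10.11, 10.48, 10.93 and 10.08 in WT livers. Gsr-null sample 3 was the lowest and Gsr-null sample 6 the highest liver, and the difference was -0.34 (SE 0.352, adjusted p = 0.942). A second probe set of Psmd6 gave -0.098. The assembly chaperones Psmd9, Psmd10 and Psmd5 differed by -0.18, -0.05 and -0.04.

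Where a gene had several tested probe sets, they did not separate the genotypes either. For 12 genes there were 14 further tested probe sets, with unadjusted p values from 0.0823 to 0.957, and 10 of the 14 had the sign of the representative one. The scatter was less alike than the means. The representative probe set had the larger residual SD in 5 of the 14 comparisons, and the other probe set in the rest. In Psmb4, Psmc4 and Psmd6, picked after their values were seen, the representative probe set had 3.95, 4.32 and 5.29 times the residual SD of the other. In Psmb4 the first probe set was 10.40 in Gsr-null sample 3 and 11.72 in sample 6, while the second was 10.86 and 10.71 in the same livers. Psmc4 gave 9.40 and 11.07 in these 2 livers on the first and 8.90 and 8.90 on the second, and Psmd6 gave 8.90 and 11.10 on the first and 9.87 and 9.63 on the second. The first probe sets of the 3 genes were all low in Gsr-null sample 3 and high in sample 6, but were not alike in every liver. Psmc4 was lowest in WT sample 2, at 9.27, and Psmb4 highest in WT sample 1, at 11.76. Gsr-null sample 5 was 10.42 for Psmc4, above its mean, and 9.86 for Psmd6, below its mean.

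The hybridisation spike-ins, transcripts of bioB, bioC, bioD and cre added to every sample before hybridisation, were low in some livers where these 3 probe sets were high, and high in some where they were low. Their mean was 9.82 in Gsr-null sample 6 and 9.64 in WT sample 1, where the 3 probe sets were high. It was 10.44 in Gsr-null sample 3 and 10.49 in WT sample 5, where they were low. WT sample 3 did not follow this, with a spike-in mean of 10.40 beside 10.53 for Psmc4 and 10.48 for Psmd6, both above their means. Between genotypes it was alike, at 10.18 ± 0.247 (SD, n = 6) in Gsr-null and 10.16 ± 0.353 (SD, n = 5) in WT samples. The spike-in mean was added as a covariate once the values were known. In that fit 0 of 34 genes were called, a share not computed for all tested probe sets, and the median difference was -0.066. The part of the spike-in mean in the scatter of single probe sets was not tested.

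**Figure D3:**
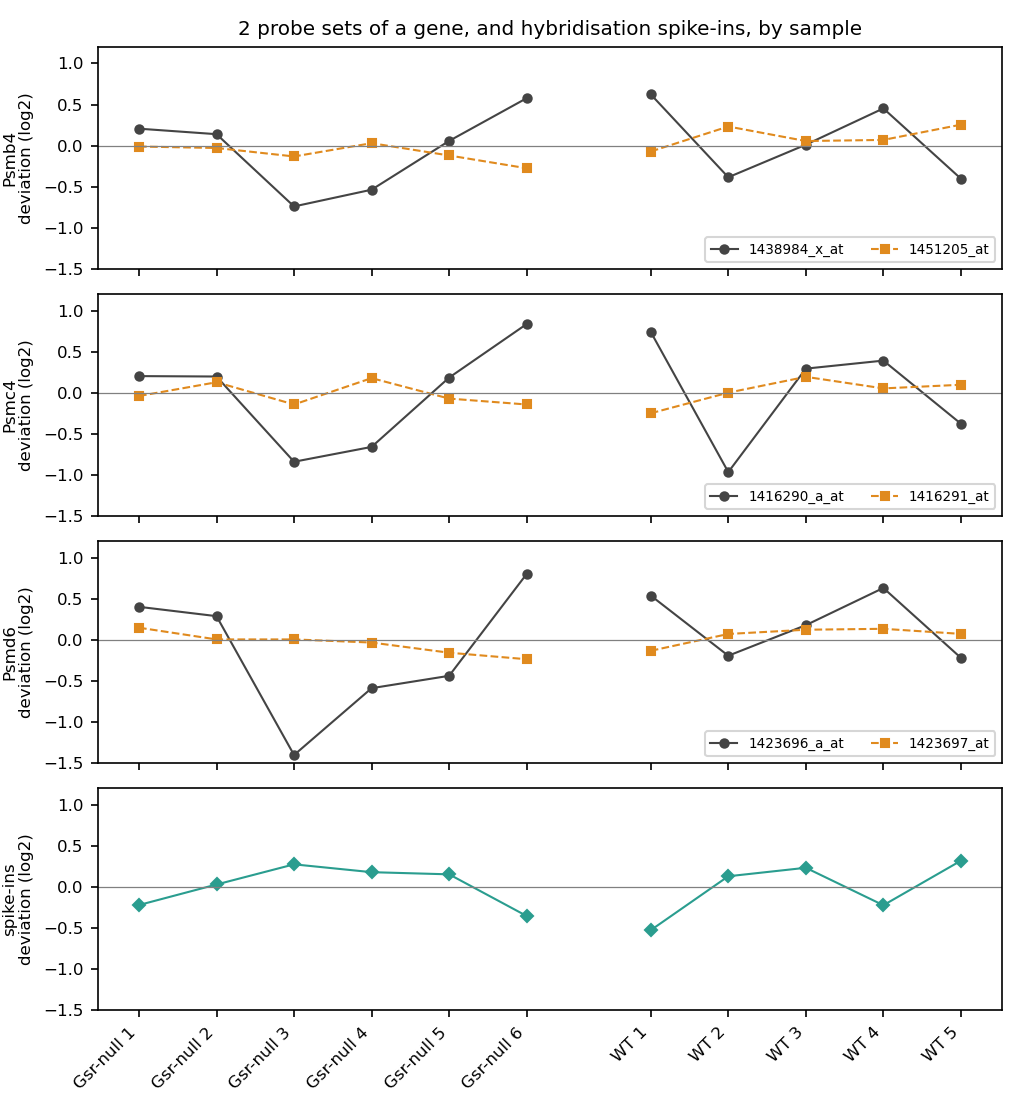
Deviation of each liver from the probe set's mean over 11 samples (y axis, log2) for the representative (black circles) and the other tested probe set (orange squares) of Psmb4, Psmc4 and Psmd6, with the mean of the hybridisation spike-ins in the bottom panel. The black lines are high in Gsr-null 6, WT 1 and WT 4 and share a low point in Gsr-null 3, the orange lines stay near 0, and the spike-ins are lowest in WT 1 and Gsr-null 6.

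Single livers were low or high for much of the complex at once. In Gsr-null livers 1 to 6 the number of the 34 genes above their own mean over all samples was 14, 23, 11, 22, 19 and 7, against 8, 26, 25, 22 and 27 in WT livers 1 to 5. Gsr-null livers 6 and 3 and WT liver 1 had the fewest genes above their mean, Gsr-null liver 1 also had most below it, and the remaining WT livers had most above it. Of all tested probe sets 32.1%, 51.4% and 46.8% were above their own mean in Gsr-null livers 6 and 3 and WT liver 1. The median deviation of the 34 genes was -0.15, -0.093 and -0.12 there, and that of all tested probe sets -0.15, 0.0093 and -0.017. Gsr-null liver 6 was therefore low across the array, whereas in Gsr-null liver 3 and WT liver 1 the proteasome genes were lower than the array as a whole. The livers were compared after their values were seen, and no test was made.

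Split by the 3' minus 5' difference, the median of the 34 genes was -0.16 in the lower set and -0.053 in the higher, against -0.014 and -0.049 for all tested probe sets. Positive differences numbered 10 of 34 in the lower set, against 48.3% of all tested probe sets. In the higher set they numbered 14 of 34, against 41.2%, so the negative lean there was that of the whole array. In 20 of 34 genes the difference had the same sign in both sets, a share not computed for all tested probe sets. Limma called 0 of the 34 genes within either set, a share not computed for all tested probe sets. In the lower set Gsr itself was not called. The lower set has 3 Gsr-null livers against 2 WT livers and includes Gsr-null sample 3.

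**Figure D4:**
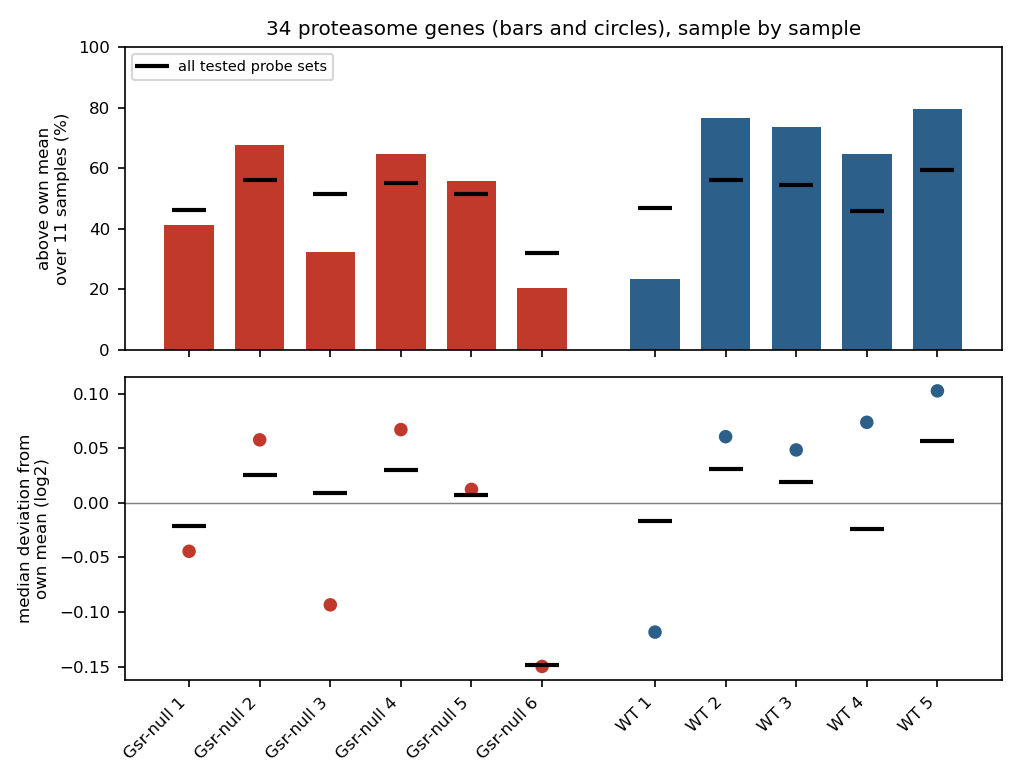
For each of 6 Gsr-null (red) and 5 WT (blue) livers, the share of the 34 proteasome genes above their own mean over 11 samples (top, percent) and the median of their deviations (bottom, log2); black dashes give the same for all 9560 tested probe sets. Gsr-null 6 and WT 1 have the lowest shares, 20.6% and 23.5%, and WT 5 the highest, 79.4%.

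The partners of the proteasome were described from lists that hold 40 symbols, of which 28 were measured by a probe set with 1 symbol and 27 tested. Of these 27 genes 0 were called in either direction, against 0.387% of all tested probe sets. A positive difference was found in 9 of 27, against 43.3% of all tested probe sets. In livers, the immunoproteasome subunits Psmb8, Psmb9 and Psmb10, which replace the catalytic ones in immune cells and under interferon, differed by -0.38, 0.0091 and -0.59. Psmb10 had 6.21 to 6.74 in Gsr-null livers, against 6.86, 7.01, 7.27, 6.60 and 7.65 in WT livers. WT sample 4 lay among the Gsr-null livers and the other WT livers above them. The difference had an SE of 0.184 and an adjusted p of 0.319, with an unadjusted interval from -0.99 to -0.19. In whole tissue, fewer cells of a type and less RNA per cell cannot be told apart. Of the 5 tested Kupffer cell and macrophage markers 0 were called. Cd68 differed by 0.32, and Clec4f, Adgre1, Cd5l and Vsig4 by -0.058, -0.18, -0.11 and -0.14. Of the 6 measured leukocyte markers 3 were tested, and all 3 had a negative difference. Cd52 was called lower, at 3.67 on average in Gsr-null and 4.94 in WT livers (difference -1.27, limma adjusted p = 0.0183), while Ptprc and Lyz2 differed by -0.44 and -0.40 without passing the test. Cd52 passed the filter only through the WT livers, where its lowest value was 4.53. In Gsr-null livers its median was 3.71 and its highest value 4.15, so the call does not stand as support. Coro1a, below the filter, averaged 3.38 in Gsr-null and 4.12 in WT livers. S100a8 and S100a9, also below it, had a highest value of 6.63 and 6.499 among Gsr-null and of 3.16 and 3.14 among WT livers. Their medians lay closer together, at 3.17 and 3.21 in Gsr-null and 3.02 and 3.10 in WT livers. The summed linear level of the 6 leukocyte markers ran from 124.8 to 465.9 in Gsr-null and from 242.3 to 366.7 in WT livers. The part of these cell types in the value of Psmb10 was not tested.

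Of the activators, Psme1, a subunit of the PA28 cap, had 8.66, 8.99 and 9.10 (lowest, median and highest) in Gsr-null livers, against 9.10, 9.26, 9.24, 9.16 and 9.38 in WT livers. The groups met at 9.10, and the difference was -0.27 (SE 0.109, limma adjusted p = 0.501). Psme2 was not analysed here, since its probe set carries 2 symbols. Psme3, Psme4 and the inhibitor Psmf1 differed by -0.08, -0.10 and -0.05. Pomp, the chaperone that matures the 20S core, averaged 9.98 ± 0.0472 (SD, n = 6) in Gsr-null and 9.86 ± 0.287 (SD, n = 5) in WT livers, a difference of 0.13 (adjusted p = 0.943). Of the 4 tested assembly chaperones Psmg2 had the smallest p, at 0.16 (adjusted p = 0.939).

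Among 10 tested ubiquitin receptors, deubiquitinases and associated factors 2 had a positive difference, against 43.3% of all tested probe sets. Ubqln1, a shuttle for ubiquitinated proteins, had the smallest p of the 10 (difference 0.23, limma adjusted p = 0.862). Vcp, the ATPase that extracts ubiquitinated proteins from complexes and membranes, differed by -0.06. Of the 6 genes of transcriptional control 0 were called, against 0.387% of all tested probe sets. Nfe2l1 had 4.34 to 5.91 in Gsr-null livers, against 5.23, 5.06, 5.43, 4.54 and 5.29 in WT livers. The groups overlapped, and its difference was 0.29 (SE 0.269, adjusted p = 0.931). Nfe2l2 and Keap1, its repressor, differed by -0.20 and 0.16, and Sel1l had the smallest p (0.35, adjusted p = 0.791). Their transcripts do not report the activity of these proteins, which is set largely after translation. None of the 6 listed genes of ubiquitin and its activating enzymes was measured by a probe set with 1 symbol.

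**Figure D5:**
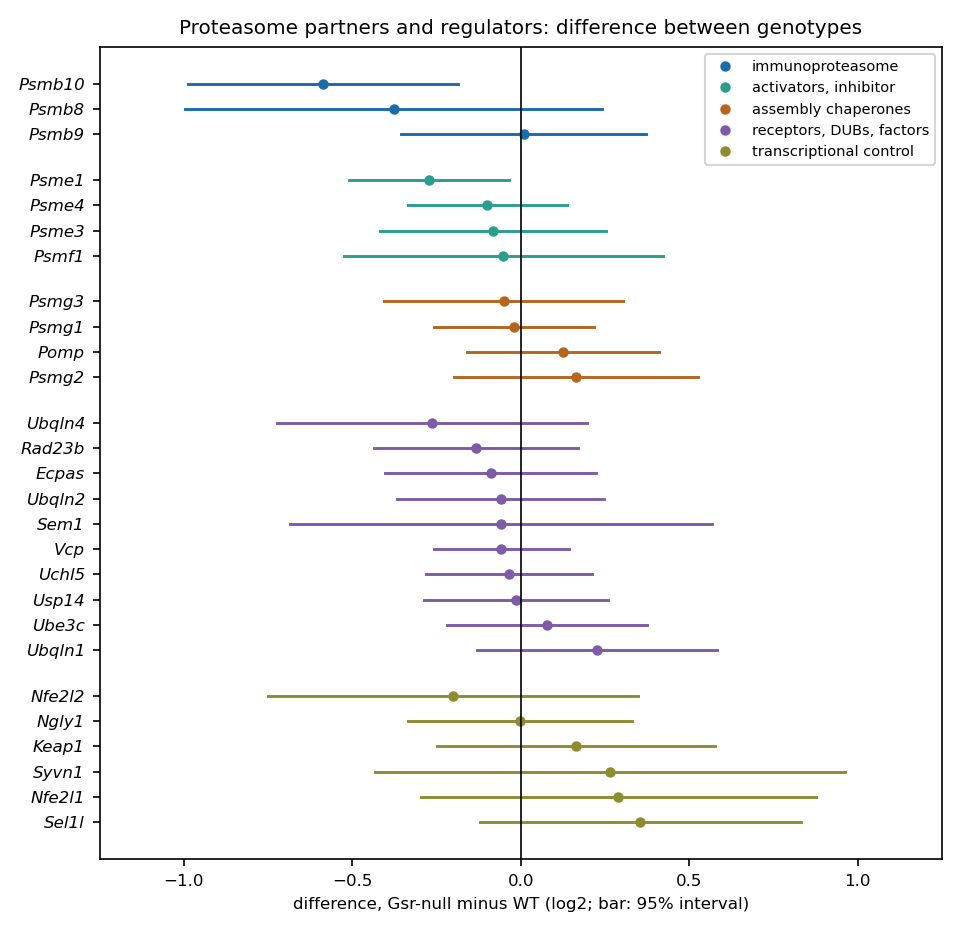
Difference between genotypes (x axis, Gsr-null minus WT, log2) for 27 partners and regulators of the proteasome, by list (DUBs, deubiquitinases); points are limma estimates from 6 Gsr-null and 5 WT livers and bars their unadjusted 95% intervals. The intervals of Psmb10 and Psme1 alone exclude 0, at adjusted p of 0.319 and 0.501.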

How the data were processed

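The deposited table holds 1 log2 value per probe set and sample, made by the authors with GCRMA (no version named), per the submitters' processing notes. The log2 scale was read from the range of the values. GCRMA removes background using each probe's sequence, then scales the arrays to each other and combines the probes of a set. Of 22690 probe sets 64 Affymetrix controls were left out, 20380 had 1 gene symbol, 691 several and 1555 none. The 36 member symbols matched RefSeq (GRCm38.p6) by Entrez identifier.

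Probe sets above 4 in at least 5 samples (9560) entered lmFit and eBayes of limma 3.58.1 (R 4.3.3), as Gsr-null minus WT, with Benjamini-Hochberg adjustment over all of them and a call at an adjusted p under 0.05. The fit was tested on simulated data. The labels call the samples biological replicates, and the number of arrays limits precision. For the 4 largest differences of each sign, the catalytic subunits, Psmd4 and Psmd14, the value of each WT liver was given. For Gsr-null livers the lowest, median and highest values were given. Members and lists were chosen with earlier results of these data known. Probe sets ending in _s_at, _x_at or _a_at can bind related transcripts. Other filters, scalings, thresholds, variance models, weights, blocks and probe sets were tried, and each sample was left out in turn. Plots used Python 3.11.15 and matplotlib 3.10.9.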

Additional observations from a re-analysis of the deposited data

Results flagged for a closer look

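In 9 of 124 groups of values 1 liver stood far from the rest of its genotype, where chance would give about 6.2, and 5 of the 9 were among the 68 groups of proteasome genes, a share like that of the other groups. In Gsr-null livers, Psma4 was 9.52 in sample 6 (the others 10.06 to 10.38) and Psma7 9.42 in sample 3 (the others 9.98 to 10.12). In WT livers, Psma2 was 10.05 in sample 1 (the others 10.30 to 10.36), Psma6 11.14 in sample 1 (10.77 to 10.88) and Psmb6 10.85 in sample 5 (10.57 to 10.65). Among partners, all in Gsr-null livers, Psme3 was 5.87 in sample 1 (6.31 to 6.52), Psmg1 7.81 in sample 6 (8.17 to 8.28), Rad23b 9.56 in sample 3 (9.98 to 10.13) and Syvn1 7.94 in sample 3 (5.76 to 6.56). Low values in Gsr-null samples 3 and 6 fell in the livers with the fewest proteasome genes above their own mean among the Gsr-null livers, 11 and 7 of 34.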

How the results depend on the processing

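Under all 32 alternatives 0 proteasome genes and 0 partners were called. The smallest adjusted p of a proteasome gene was 0.245, and at most 2 proteasome genes reached an unadjusted p under 0.05 in any of them. The share of all tested probe sets called was 0.387% in the main fit and was not computed for the alternatives. The thresholds of 0.01 and 0.1 reuse the main fit, so its adjusted p values fixed their 0 calls in advance. The spike-in covariate and the choice of the probe set with the smallest residual SD were added after the data were seen. Of 1079 values of single proteasome genes under alternatives 995 kept their sign, and 84 values of 22 genes changed it without being called. The other filters, variance models and thresholds, and the fit with 1 probe set per gene, leave the difference itself unchanged. Many of the 995 signs were therefore fixed in advance, and the count is no measure of stability. The median difference, -0.063, ran from -0.12 to -0.045 with 1 sample left out and became -0.16 within the lower 3' minus 5' set, where fewer samples enter. The count of positive differences, 8 of 34, ran from 5 to 13 with 1 sample left out, and was 13 with array weights, 13 with the replicate block (which drops Gsr-null sample 6, as one of the omissions does) and 14 within the higher 3' minus 5' set. The cause of these changes was not tested. Gsr lost its call only within the lower set (-1.71, limma adjusted p = 0.0862), which has 5 samples. The labels do not say whether same-numbered samples of the genotypes are paired, and the bracketed numbers of the titles were not tried. Their deviations correlated at -0.243 to 0.0361, and for 0 of the 5 WT samples was the same-numbered Gsr-null sample the closest. Such correlations cannot show that the animals were not paired. The block changed no other call.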
